A study of Mus musculus with 13 samples.

Results

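Shaker-type Kv1 potassium channels, their cytoplasmic beta subunits, the adhesion proteins CASPR2 and contactin-2, and the LGI ligands with their receptor ADAM22 were followed as 1 group of 10 genes in mouse sciatic nerve. The genes were Kcna1, Kcna2, Kcna6, Kcnab1, Kcnab2, Cntnap2, Cntn2, Lgi1, Lgi4, and Adam22, out of 40787 genes in the count table. The group was chosen by the counts of Kcna1, Kcna2, and Lgi1 in injured nerves, which were low in the knockout, so their difference between genotypes in injured nerves is given as a description without a test. In injured nerves, the knockout libraries held 26.5% of the control level of Kcna1, 27.9% of that of Kcna2, and 15.4% of that of Lgi1. In uninjured nerves, whose counts the stated choice did not use, Kcna2, Lgi1, Lgi4, and Adam22 were lower in the knockout, whereas Kcna1 was not. The uninjured nerves may come from the same mice, however, and the genes were chosen with earlier results of these data known. The result for Kcna2 was lost in 5 of 14 alternative analyses, all of which left out a single library. It was also lost at an adjusted p below 0.01.

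The study deleted Rptor, which encodes the Raptor subunit of the mTORC1 kinase complex, in Schwann cells (SCs). RaptorKO mice carried floxed Rptor alleles and a tamoxifen-inducible CreERT2 that is active in SCs, and controls carried the same floxed alleles without Cre. All mice were labelled C57BL/6, with the experimental animals backcrossed to that background, and all received tamoxifen at 2 months of age. One sciatic nerve was crushed 2 months later, and both nerves were sampled at 5 days post crush (dpc) after the epineurium was removed, giving 3 control injured, 3 RaptorKO injured, 3 control contralateral, and 4 RaptorKO contralateral libraries. RNA came from whole nerve, so in every result fewer cells of a type and less RNA per cell cannot be told apart.

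Kv1 channels are tetramers of pore-forming alpha subunits that open on depolarization and dampen repetitive firing. In myelinated fibers they sit beneath the compact myelin next to the paranode, the juxtaparanode, where CASPR2 on the axon and contactin-2 on the axon and the glial cell hold them in a cluster and beta subunits bind their cytoplasmic face. LGI proteins are secreted ligands of catalytically inactive ADAM receptors, and the pair LGI4 and ADAM22 is known from the control of SC myelination. SCs themselves also express Kv1 channels.

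The 3 pore genes are close paralogs, and their separate readouts depend on reads that tell them apart. To show how far they differ at the pore, the coding stretch of 90 bases around the potassium selectivity filter is printed for each. The 18 bases of the filter are in capitals. Whether the genes are more alike elsewhere in their coding sequence was not tested. The stretches lie at chr6:126642189-126642278 on the minus strand for Kcna1, at chr3:107105188-107105277 on the plus strand for Kcna2, and at chr6:126738608-126738697 on the minus strand for Kcna6 (GRCm38, 5′ to 3′ along the coding strand).
Kcna1: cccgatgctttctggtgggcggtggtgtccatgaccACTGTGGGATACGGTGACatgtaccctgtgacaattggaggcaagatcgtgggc
Kcna2: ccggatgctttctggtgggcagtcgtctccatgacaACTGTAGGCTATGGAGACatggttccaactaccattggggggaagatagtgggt
Kcna6: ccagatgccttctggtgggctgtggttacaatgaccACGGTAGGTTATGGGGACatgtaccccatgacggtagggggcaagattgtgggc

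Kcna1 and Kcna2 were identical at 69 of these 90 bases, Kcna1 and Kcna6 at 72, and Kcna2 and Kcna6 at 67. The longest identical run was 17 bases between Kcna1 and Kcna2 and 11 bases in the other pairs. Over whole transcripts, no 50-base window of Kcna1 occurred in another gene, and 0.447% of the windows of Kcna2 and 1.33% of those of Kcna6 did on the same strand. Adam22 shared none. Lgi1 shared 10.2% of its windows on the same strand, nearly all with the gene model Gm3888, and its deposited values were estimates that departed from whole numbers by over 0.05 in 11 of 13 libraries, so its level is less certain than the others. Gm3888 was not analysed here.

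Kcna2 and Lgi1 are printed with the 250 bases before their RefSeq start (GRCm38.p6), since both were low in RaptorKO nerves of either side and could be compared for shared letters. Capitals mark the E-box, CANNTG, which reads as the same motif on both strands. The stretches lie at chr3:107101317-107101566 and chr19:38264437-38264686, both on the plus strand. In the gene annotation used for exon lengths, Kcna2 starts at 107101146 and Lgi1 at 38264536. By that annotation, the stretch of Kcna2 lies inside the gene and the stretch of Lgi1 reaches into it.
Kcna2: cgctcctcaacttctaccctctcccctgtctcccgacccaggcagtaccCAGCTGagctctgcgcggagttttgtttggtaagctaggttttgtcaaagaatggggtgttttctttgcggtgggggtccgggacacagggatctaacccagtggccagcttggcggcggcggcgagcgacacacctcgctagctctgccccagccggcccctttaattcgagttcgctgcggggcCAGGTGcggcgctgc
Lgi1: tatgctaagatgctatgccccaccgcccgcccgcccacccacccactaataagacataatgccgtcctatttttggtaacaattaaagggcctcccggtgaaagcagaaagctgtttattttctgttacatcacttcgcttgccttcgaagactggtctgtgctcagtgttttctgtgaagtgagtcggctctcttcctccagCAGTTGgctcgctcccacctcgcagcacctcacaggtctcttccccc

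The E-box began 201 and 15 bases before the start of Kcna2 and 47 bases before that of Lgi1. It was present in 10 of the 13 promoters of this length that the reference held for 8 of the 10 genes (none for Kcna1 and Lgi4), and in 66.2% of all 32851 promoters. The AP-1 motif TGANTCA, searched on both strands, was in 0 of the 13 and in 6.75% of all promoters. The SOX motif ACAAAG or its reverse complement was in 2 of the 13 and in 16.5% of all. A match describes the letters only, and genes with alternative starts have more than 1 window.

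Library totals ran from 8200458 to 13581775 counts. Levels are given as counts per 1e+06 (CPM) after scaling with the TMM factors of edgeR, and levels of different genes are compared only per kb of annotated exon. Genes with 50 or more counts in 2 or more of the compared libraries were tested, and a gene was called where its adjusted p (edgeR quasi-likelihood test, Benjamini-Hochberg) was under 0.05 and its fold change over 1.2. Rptor, the deleted gene, was at 51.9, 52.2, and 43.6 CPM in control contralateral and 22.1 to 27.8 CPM in RaptorKO contralateral nerves (adjusted p = 5.00e-04), and at 35.0 to 49.5 and 23.3 to 28.8 CPM in the injured groups (adjusted p = 0.0167). All knockout libraries lay below all control libraries, although the adjusted p in injured nerves was 0.0511 to 0.0882 when control injured library 1 or 2 or RaptorKO injured library 1 was left out. Both control libraries numbered 3 carried the female transcript Xist (14462 and 15017 counts, against 4 to 17 in the other 11 libraries), and results are therefore also given without each library.

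Of the 10 genes, 8 passed the count filter in each comparison. Cntnap2, which encodes CASPR2, held 0 to 6 counts in any library, and Cntn2, which encodes contactin-2, held 0 or 5 counts in each contralateral library and 0 in all 6 injured libraries. Neither could be compared at this depth. The transcripts of both adhesion proteins of the juxtaparanode were thus near the detection floor in nerve RNA, while those of the Kv1 pore subunits were not. The defining neuronal transcripts Syt1, Rbfox3, and Scn10a were likewise at or below 1.07 CPM in every library. Other genes of the neuron list were detected. Stmn2 was at 18.2 to 27.3 CPM in control contralateral and 6.56 to 7.43 CPM in control injured nerves. Tubb3 was at 6.64 to 7.87 CPM and 213 to 233 CPM there. After injury in control nerves, 5 of 6 tested genes of the list were called lower and 1, Tubb3, higher, against 32.9% and 32.4% of all tested genes. Of the 5, all but Stmn2 passed the count filter only through the contralateral libraries and so could only be lower.

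Kcna1 encodes a pore-forming alpha subunit and lies on the minus strand of chromosome 6 from 126640397 to 126646384 (ENSMUSG00000047976). Its level was 222, 249, and 216 CPM in control contralateral and 241, 266, 183, and 182 CPM in RaptorKO contralateral nerves. In injured nerves it was 136, 131, and 119 CPM in the control libraries and 36.3, 32.0, and 32.4 CPM in the RaptorKO libraries. The contralateral groups overlapped, with the RaptorKO libraries on both sides of the controls, whereas the 3 injured RaptorKO libraries lay far below every other library.

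Kcna2, another alpha subunit that joins Kcna1 in mixed tetramers, lies on the plus strand of chromosome 3 from 107101146 to 107115005 (ENSMUSG00000040724). It was at 612, 615, and 599 CPM in control contralateral and 394, 384, 349, and 533 CPM in RaptorKO contralateral nerves. After injury it stood at 141, 167, and 148 CPM with Raptor and at 47.5, 38.7, and 39.1 CPM without it. The 4 groups did not overlap at any point, in the order control contralateral, RaptorKO contralateral, control injured, and RaptorKO injured.

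Kcna6, the third alpha subunit, lies near Kcna1 on the minus strand of chromosome 6 from 126708329 to 126740674 (ENSMUSG00000038077). It was at 126, 122, and 120 CPM in control contralateral, 86.1, 94.4, 80.0, and 120 CPM in RaptorKO contralateral, 155, 190, and 179 CPM in control injured, and 85.6, 86.1, and 66.1 CPM in RaptorKO injured nerves. Unlike Kcna1 and Kcna2, it was highest in the injured control nerves. RaptorKO contralateral library 4 was the highest of its group for both Kcna2 and Kcna6.

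**Figure D1:**
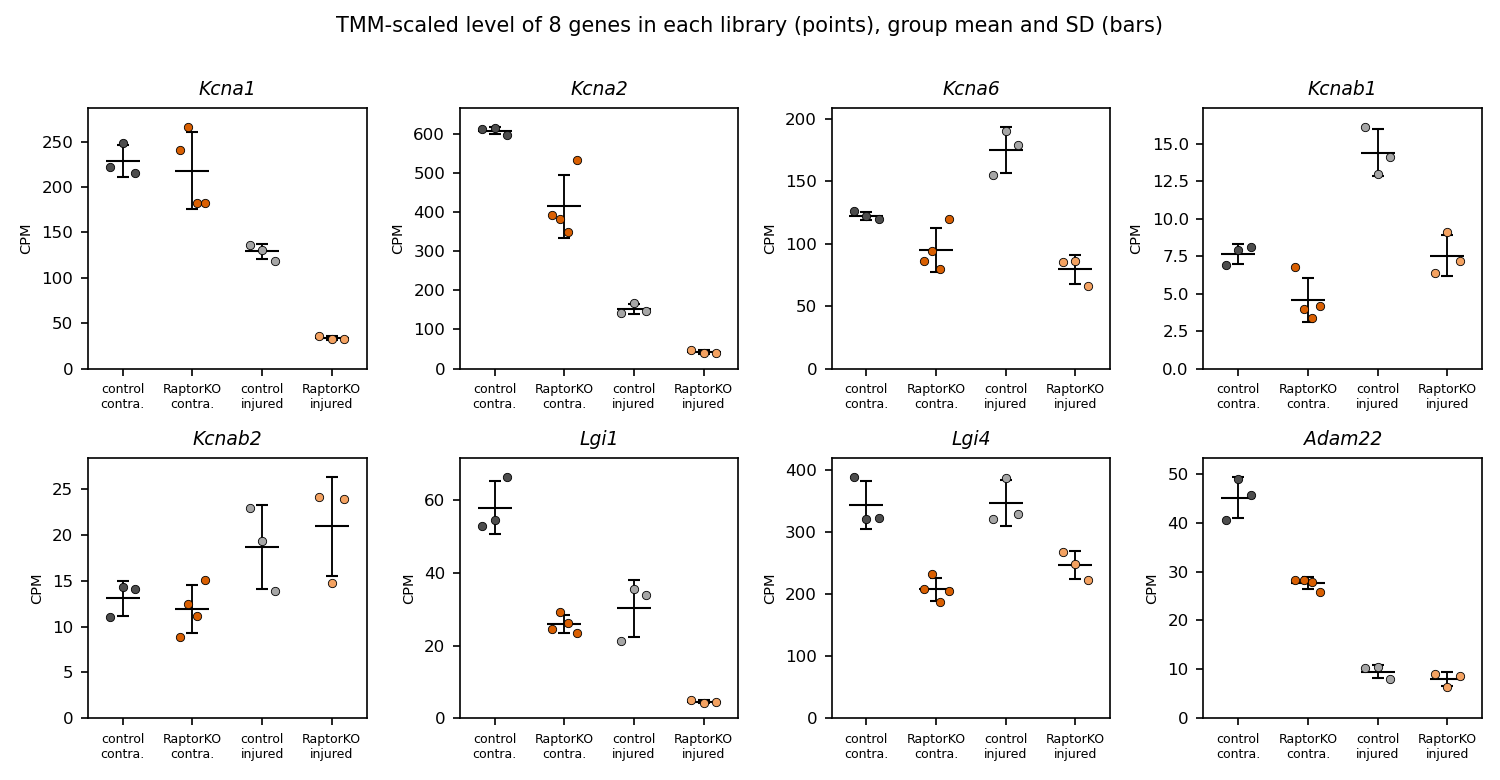
Level of the 8 genes that passed the count filter, in TMM-scaled CPM (y axis, from 0), in the 4 groups (x axis; contra., contralateral). Points are libraries, and bars are the group mean and SD. Kcna1, Kcna2, and Lgi1 are lowest in the 3 injured RaptorKO libraries, whereas Kcna6 and Kcnab1 are highest in the 3 injured control libraries and Lgi4 is at 321 to 389 CPM in control nerves of either side.

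The cytoplasmic beta subunits were scarce. Kcnab1 (ENSMUSG00000027827, chromosome 3, 65109384 to 65378223, plus strand), which speeds the inactivation of Kv1 channels, was at 6.88, 7.94, and 8.08 CPM in control contralateral, 6.76, 3.97, 3.40, and 4.19 CPM in RaptorKO contralateral, 16.1, 13, and 14.1 CPM in control injured, and 6.36, 9.08, and 7.18 CPM in RaptorKO injured nerves. On each side the RaptorKO values were all under the control values. Kcnab2 (ENSMUSG00000028931, chromosome 4, 152390742 to 152477871, minus strand), which aids the transport of Kv1 channels, was at 11, 14.3, and 14.1 CPM in control contralateral, 8.87, 12.4, 11.1, and 15.1 CPM in RaptorKO contralateral, 22.9, 19.3, and 13.9 CPM in control injured, and 24.1, 14.7, and 23.9 CPM in RaptorKO injured nerves. The genotypes overlapped on both sides.

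Lgi1 encodes a secreted LGI ligand that is best known for its link to epilepsy and lies on the plus strand of chromosome 19 from 38264536 to 38312214 (ENSMUSG00000067242). It was at 52.9, 54.7, and 66.4 CPM in control contralateral, 24.6, 29.2, 26.3, and 23.6 CPM in RaptorKO contralateral, 21.3, 35.7, and 33.8 CPM in control injured, and 5.11, 4.26, and 4.42 CPM in RaptorKO injured nerves. The injured RaptorKO libraries held 48 to 57 counts each, which is just at the filter. Control injured library 1 was the lowest of its group but lay above every injured RaptorKO library.

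Lgi4 encodes the LGI ligand that SCs secrete and that is needed for myelination, and it lies on the plus strand of chromosome 7 from 31059342 to 31070935 (ENSMUSG00000036560). It was at 389, 321, and 323 CPM in control contralateral, 208, 232, 187, and 205 CPM in RaptorKO contralateral, 321, 388, and 330 CPM in control injured, and 268, 249, and 223 CPM in RaptorKO injured nerves. All 7 RaptorKO libraries lay below all 6 control libraries, injured or not. Adam22 encodes the LGI receptor and lies on the minus strand of chromosome 5 from 8072352 to 8368160 (ENSMUSG00000040537). It was at 40.6, 49.0, and 45.7 CPM in control contralateral, 28.3, 28.3, 27.9, and 25.8 CPM in RaptorKO contralateral, 10.2, 10.4, and 8.11 CPM in control injured, and 9.05, 6.47, and 8.56 CPM in RaptorKO injured nerves. The contralateral groups were apart, and the injured groups overlapped near the bottom of the range.

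Per kb of exon, the order of the genes changed with injury. In control contralateral nerves Lgi4 stood at 75.1 ± 8.43, Kcna2 at 51.1 ± 0.73, Kcna1 at 47.9 ± 3.64, and Kcna6 at 20.6 ± 0.56 CPM per kb (mean ± SD, n = 3). Lgi1, Adam22, and Kcnab2 followed at 5.11 ± 0.65, 3.14 ± 0.29, and 2.36 ± 0.34, and Kcnab1 at 0.89 ± 0.08 CPM per kb. Among these 8 genes, the libraries of neighbors in this order overlapped only between Kcna2 and Kcna1.

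In RaptorKO contralateral nerves Kcna1 was at 45.6 ± 8.84, Lgi4 at 45.4 ± 4.02, and Kcna2 at 34.8 ± 6.79 CPM per kb (mean ± SD, n = 4), and the libraries of Kcna1 and Lgi4, and of Lgi4 and Kcna2, overlapped. In injured control nerves Kcna6, at 29.4 ± 3.06 CPM per kb, stood level with Kcna1, at 26.9 ± 1.84, and above Kcna2, at 12.8 ± 1.13, whereas Lgi4 was still first at 75.6 ± 7.96 CPM per kb.

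In injured RaptorKO nerves Lgi4 was at 53.8 ± 4.97, Kcna6 at 13.3 ± 1.92, Kcna1 at 7.02 ± 0.50, and Kcna2 at 3.51 ± 0.42 CPM per kb (n = 3). Lgi1 fell to the last place among the 8 genes, at 0.41 ± 0.04 CPM per kb. The order of the pore genes depends on the length used, because Kcna2 has 11906 exonic bases against 4780 for Kcna1 while their coding lengths are alike (1497 and 1485 bases). Per kb of coding length, Kcna2 was at 407 and Kcna1 at 154 CPM in control contralateral nerves, and in injured controls Kcna6 was at 110.0, Kcna2 at 101, and Kcna1 at 86.6 CPM.

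The 8 Kv1 alpha subunit genes summed to 120.0 ± 4.17 CPM per kb in control contralateral, 98.1 ± 10.7 in RaptorKO contralateral, 71.4 ± 3.61 in control injured, and 25.6 ± 2.52 in RaptorKO injured nerves, values that also depend on the length used. How a ratio of 2 genes changes from group to group does not depend on length. Within a library, the ratio of Kcna6 to Kcna2 per kb was 0.396 to 0.412 in control contralateral and 0.438 to 0.492 in RaptorKO contralateral nerves. It was 2.21 to 2.42 in control injured and 3.38 to 4.46 in RaptorKO injured nerves, so the 4 groups were apart in this ratio. The ratio of Kcna2 to Kcna1 was 0.414 to 0.513 in control injured and 0.485 to 0.525 in RaptorKO injured nerves and did not separate the genotypes there.

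**Figure D2:**
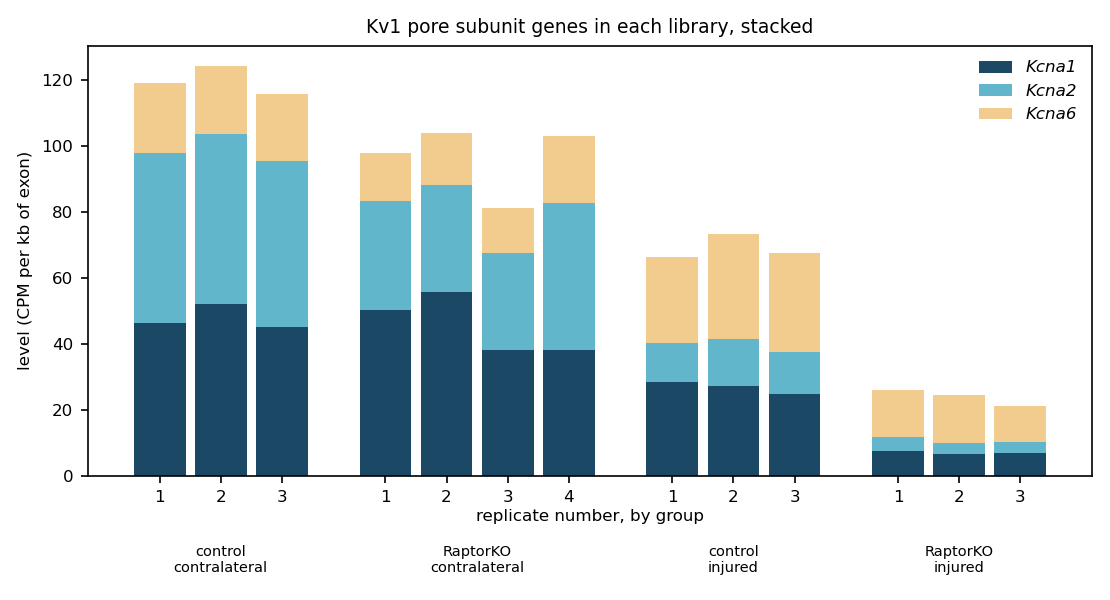
Level per kb of annotated exon (y axis, CPM per kb, from 0) of Kcna1, Kcna2, and Kcna6, stacked for each library (x axis, replicate number by group). The injured RaptorKO bars are the lowest, and Kcna6 is the smallest part of each contralateral bar and the largest part of each injured RaptorKO bar.

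RaptorKO and control contralateral nerves were compared to see which of these genes depended on Raptor without injury. Of the 8 genes tested, 4 were lower in RaptorKO and 0 were higher (0 also by DESeq2 and at an unadjusted p below 0.05), against 5.68% of all 11878 tested genes called lower and 4.49% called higher. The median log2 fold change of the 8 genes was -0.61 against 0.01 over all tested genes. Lgi1 was 2.19-fold lower (log2 fold change -1.13 ± 0.12 SE, adjusted p = 2.18e-04), Lgi4 was 1.63-fold lower (-0.70 ± 0.10, adjusted p = 0.00156), and Adam22 was 1.61-fold lower (-0.69 ± 0.10, adjusted p = 0.00241). Both LGI ligands and their receptor were thus lower in uninjured RaptorKO nerves, and these 3 calls were kept in each of 14 alternative analyses (adjusted p up to 0.00195, 0.0103, and 0.019).

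Among the pore genes, Kcna2 was 1.44-fold lower (log2 fold change -0.53 ± 0.13 SE, adjusted p = 0.0319). Its call was lost when any control contralateral library or RaptorKO contralateral library 1 or 2 was left out (adjusted p = 0.0654 to 0.116), although the log2 fold change stayed at -0.54 to -0.49 there. Kcna6 had a log2 fold change of -0.34 ± 0.13 (adjusted p = 0.131), and without RaptorKO contralateral library 4 it had one of -0.48 ± 0.08 (adjusted p = 0.00733). Kcna1 had a log2 fold change of -0.05 ± 0.13 (adjusted p = 0.871).

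Neither beta subunit gene was called in contralateral nerves. Kcnab1 had a log2 fold change of -0.72 ± 0.27 (adjusted p = 0.129) on 33 to 98 counts per library, and Kcnab2 had one of -0.12 ± 0.20 (adjusted p = 0.759). By rank, 5 of the 8 genes had contralateral groups that did not overlap, with RaptorKO lower, namely Kcna2, Kcnab1, Lgi1, Lgi4, and Adam22, against 14.2% of all tested genes.

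SC transcripts moved with these values. Of 7 SC markers, 5 were called lower in contralateral RaptorKO nerves (among them S100b, Cdh19, Cdh2, and Erbb3) with a median log2 fold change of -0.93 over the list, and its summed level was 3865 to 4034 CPM in controls and 1851 to 2552 CPM in RaptorKO. Sox10, the defining SC transcription factor, had a log2 fold change of -0.25 (adjusted p = 0.128), Egfl8 had a log2 fold change of 0.265 (all RaptorKO above all control libraries, unadjusted p = 0.0296, adjusted p = 0.147, edgeR), and 0 of 8 markers of myelinating SCs were called (3 were lower at an unadjusted p below 0.05). Of 5 markers of nonmyelinating SCs, 3 were lower (Scn7a, Gfap, and Chl1), of which Gfap, at 22 to 49 counts in the RaptorKO libraries, passed the count filter only through the controls. Of the other lists, 4 of 7 tested macrophage, 3 of 6 fibroblast, 2 of 5 tested mast cell, and 2 of 7 tested neuron markers were higher, and 0 of 5 endothelial and 0 of 5 perineurial markers were called (0 at an unadjusted p below 0.05 in both). Nefh, a called neuron marker, passed the count filter only through the RaptorKO libraries and so could only be higher. The neuron list summed to 56.1 to 70.8 CPM in controls and 77.2 to 126 CPM in RaptorKO. The part of these shifts in the results on Lgi1, Lgi4, Adam22, and Kcna2 was not tested.

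In injured nerves the same comparison chose the genes and is therefore described only. The log2 fold change of RaptorKO against control was -1.92 ± 0.11 (SE) for Kcna1, -1.84 ± 0.12 for Kcna2, and -1.12 ± 0.13 for Kcna6. Kcna1 and Kcna2 were thus lower by 3.78-fold and 3.59-fold, and Kcna6 by 2.18-fold. Lgi1 was 6.50-fold lower, with a log2 fold change of -2.70 ± 0.23. Across 13 alternative analyses the value of Lgi1 ran from -2.91 to -2.57, that of Kcna1 from -1.98 to -1.88, and that of Kcna2 from -1.95 to -1.78.

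The other genes were nearer to the controls after injury. The log2 fold change was -0.91 ± 0.21 for Kcnab1, -0.47 ± 0.12 for Lgi4, -0.23 ± 0.23 for Adam22, and 0.18 ± 0.23 for Kcnab2. In 6 of the 8 genes all RaptorKO libraries lay below all control libraries, with Kcnab2 and Adam22 as the exceptions, and 14.8% of all tested genes did so. The median over the 8 genes was -1.01 against 0.00 over all 12040 tested genes, of which 4.44% were called lower and 4.09% higher. These shares are given for scale only.

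Cell type markers also differed in the injured nerves. The SC list had 4 of 7 markers lower (among them S100b, Cdh19, and Cdh2) with a median log2 fold change of -0.48 and summed to 2976 to 3052 CPM in controls and 1768 to 2202 CPM in RaptorKO. Of the nonmyelinating SC markers, 4 of 5 were lower, among them Scn7a, which was 2.80-fold lower (adjusted p = 1.82e-04). Gfap, also among the 4, passed the count filter only through the controls and is given by its counts, which were 236, 223, and 237 in the control and 44, 35, and 22 in the RaptorKO libraries. The lists of myelinating and repair SCs and of macrophages had 0 called markers, of 8, 7, and 8 tested (1, 1, and 0 at an unadjusted p below 0.05). Among the repair markers, all RaptorKO libraries lay below all control libraries for Shh and for Olig1, which was not tested. The other repair markers overlapped. By qRT-PCR, the study reported lower Jun, Olig1, Shh, and Runx2 in injured RaptorKO nerves, and no significant change in Gdnf. Of the remaining lists, 5 of 5 endothelial and 5 of 6 mast cell markers were higher. Hdc, a called mast cell marker, passed the count filter only through the RaptorKO libraries and so could only be higher. Of the fibroblast markers, 2 of 6 were called higher (5 at an unadjusted p below 0.05), as was 1 of 4 tested perineurial markers, Slc2a1. The neuron list summed to 223 to 242 CPM in controls and 125 to 162 CPM in RaptorKO, most of it Tubb3. Of its 2 tested genes, Tubb3 was lower and Stmn2 was 1.87-fold higher (adjusted p = 0.0286). The part of these differences in the levels of Kcna1, Kcna2, Kcna6, and Lgi1 was not tested.

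**Figure D3:**
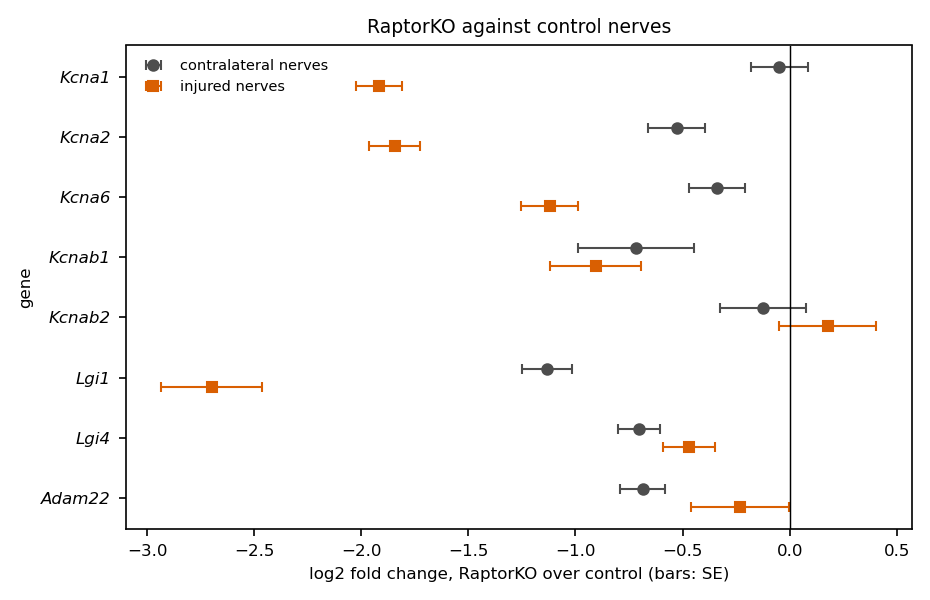
Log2 fold change of RaptorKO against control (x axis; bars, SE) for the 8 genes (y axis) in contralateral (circles) and injured nerves (squares). Kcna1 is at -0.05 in contralateral and -1.92 in injured nerves, whereas Lgi4 and Adam22 are at -0.70 and -0.69 in contralateral and nearer to 0 in injured nerves.

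The difference between both genotype effects was taken from a single model of all 13 libraries and, since it holds the contrast that chose the genes, has no test. It was -1.87 ± 0.18 (log2, SE) for Kcna1, -1.56 ± 0.25 for Lgi1, -1.31 ± 0.19 for Kcna2, and -0.77 ± 0.19 for Kcna6, so the shortfall of these 4 genes in RaptorKO was larger after injury. It was -0.19 ± 0.34 for Kcnab1 and 0.31 ± 0.33 for Kcnab2, both within the error. For Lgi4 it was 0.24 ± 0.15 and for Adam22 0.46 ± 0.20, on the other side of 0. The ratio of Lgi4 to Lgi1 per kb was 12.0 to 18.2 in control contralateral, 17.7 to 21.5 in RaptorKO contralateral, 24.2 to 37.4 in control injured, and 125 to 145 in RaptorKO injured nerves, which stood apart from all others.

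Injured and contralateral nerves of the same genotype were then compared, which asks how the genes respond to crush. These comparisons share the contralateral and injured libraries with those above, and for Kcna1, Kcna2, and Lgi1 they are described without a test because the injured libraries chose these genes. In control nerves at 5 dpc, Kcna2 was at 24.2% of its contralateral level (log2 fold change -2.05 ± 0.11 SE), Kcna1 at 54.3% (-0.88 ± 0.09), and Lgi1 at 50.6% (-0.98 ± 0.18). In RaptorKO nerves, Kcna2 was at 9.88% (-3.34 ± 0.17), Kcna1 at 15.1% (-2.73 ± 0.16), and Lgi1 at 17.4% (-2.52 ± 0.16). All 3 genes were lower in every injured library than in any contralateral library of the same genotype.

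Of the 5 other genes that passed the count filter, 3 were called in control nerves. Adam22 fell 4.88-fold (log2 fold change -2.29 ± 0.15 SE, adjusted p = 6.12e-08), whereas Kcnab1 rose 1.82-fold (0.87 ± 0.19, adjusted p = 0.00189) and Kcna6 rose 1.38-fold (0.47 ± 0.09, adjusted p = 9.21e-04). Injury changed most of the transcriptome, with 32.9% of 12430 tested genes lower and 32.4% higher. Lgi4 had a log2 fold change of -0.04 ± 0.12 (adjusted p = 0.789). For Kcnab2 it was 0.46 ± 0.20 (adjusted p = 0.0641), and without control injured library 3 it was 0.65 ± 0.19 (adjusted p = 0.0103). Kcnab2 was also called with no count filter (0.51 ± 0.20, adjusted p = 0.0306, edgeR quasi-likelihood test).

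In RaptorKO nerves 2 of the 5 genes were called, while 28.5% of 12515 tested genes were lower and 30.5% higher. Adam22 fell 3.50-fold (log2 fold change -1.81 ± 0.16, adjusted p = 3.71e-06) and Kcnab2 rose 1.73-fold (0.79 ± 0.23, adjusted p = 0.0114), although the call of Kcnab2 was lost without RaptorKO injured library 1 (0.67 ± 0.26, adjusted p = 0.0578). Kcnab1 had a log2 fold change of 0.70 ± 0.30 (adjusted p = 0.0662), which became 0.94 ± 0.28 (adjusted p = 0.0183) without RaptorKO contralateral library 1. Kcnab1 was also called by the edgeR exact test, which the study used (adjusted p = 0.0447). The same held in 1 fit of all 13 libraries (adjusted p = 0.0169, edgeR quasi-likelihood test). Kcna6, which rose in controls, had a log2 fold change of -0.29 ± 0.15 (adjusted p = 0.129) in RaptorKO, and Lgi4 had one of 0.22 ± 0.10 (adjusted p = 0.0848). Lgi4 passed the test without RaptorKO injured library 3 (0.28 ± 0.10, adjusted p = 0.044).

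**Figure D4:**
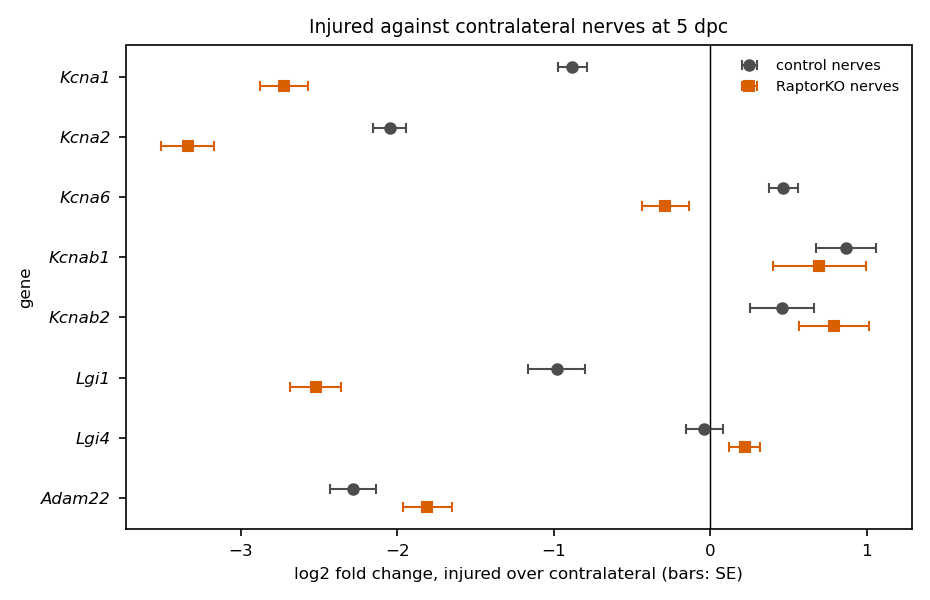
Log2 fold change of injured against contralateral nerves at 5 dpc (x axis; bars, SE) for the 8 genes (y axis) in control (circles) and RaptorKO nerves (squares). Adam22 is low after injury in both genotypes (-2.29 and -1.81), whereas Kcna6 is at 0.47 in control and -0.29 in RaptorKO nerves.

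The rest of the pathway was taken as a list of 17 genes, made of the other Kv1 alpha subunits, the beta subunit Kcnab3, the other LGI ligands, the LGI receptors Adam11 and Adam23, and scaffold proteins of the Dlg and protein 4.1 families. None of the other alpha subunits came near Kcna1, Kcna2, and Kcna6. Kcna7 was listed at 0 in every library, and Kcna3, Kcna4, Kcna5, and Kcna10 were at 0 to 6.56 CPM. Together these 5 made up 0.412% to 0.806% of the summed alpha subunit level per kb in control contralateral and 6.16% to 7.73% in RaptorKO injured nerves.

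Adam11 and Adam23 are, like Adam22, catalytically inactive receptors of LGI proteins, and both were lower in RaptorKO nerves of either side. Adam11 was at 31.9, 35.2, and 31.2 CPM in control contralateral, 13.1, 16.5, 12.6, and 13 CPM in RaptorKO contralateral, 68.0, 101, and 88.2 CPM in control injured, and 39.0, 44.7, and 27.7 CPM in RaptorKO injured nerves. The genotypes did not overlap on either side. Adam11 was 2.33-fold lower in contralateral RaptorKO nerves (adjusted p = 2.55e-04) and 2.27-fold lower in injured ones (adjusted p = 0.00373), and it rose after injury by a log2 fold change of 1.34 ± 0.14 in control (adjusted p = 4.37e-06) and 1.40 ± 0.18 in RaptorKO nerves (adjusted p = 6.46e-05).

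Adam23 was at 41.6, 44.6, and 46.4 CPM in control contralateral, 34.2, 32.2, 32.6, and 34.6 CPM in RaptorKO contralateral, 69.7, 61.3, and 65.5 CPM in control injured, and 26.5, 25.3, and 21.4 CPM in RaptorKO injured nerves. It was thus high in the injured controls and lowest in the injured RaptorKO nerves. The log2 fold change of RaptorKO against control was -0.38 ± 0.10 in contralateral (adjusted p = 0.0309) and -1.41 ± 0.13 in injured nerves (adjusted p = 1.82e-04). The contralateral call was lost without any of 6 libraries, all 3 controls and RaptorKO libraries 1, 2, and 3 (adjusted p = 0.0586 to 0.119). Adam23 is no member of the chosen group, and the difference between both genotype effects could be tested for it (-1.02 ± 0.15, adjusted p = 0.00275).

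Kcnab3 encodes a further beta subunit and was nearly silent without injury, with 0 to 5 counts in each contralateral library. It held 111, 148, and 114 counts in the injured control libraries, at 10.3, 13.8, and 11.1 CPM, and 34, 46, and 41 counts in the injured RaptorKO libraries, at 3.05, 3.63, and 3.77 CPM. The 3 injured RaptorKO libraries lay between the contralateral and the injured control libraries. Kcnab3 passed the count filter only through the injured control libraries, so its values are a description without a test. It shares 147 exonic bases with a gene on the other strand.

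Over the whole list, 2 of 9 tested genes were lower and 0 higher in contralateral RaptorKO nerves (Adam11 and Adam23), against 5.68% and 4.49% of all tested genes. In injured RaptorKO nerves 3 of 11 were lower and 0 higher (Adam23, Kcnab3, and Adam11), against 4.44% and 4.09%. Kcnab3 passed the count filter there only through the injured controls and so could only be lower. The medians of the list were 0.15 and -0.22, so the list as a whole did not share the direction of the LGI receptors in contralateral nerves. After injury, 2 of 11 were lower and 8 higher in control nerves, against 32.9% and 32.4% of all tested genes, and 3 of 9 were lower and 4 higher in RaptorKO nerves, against 28.5% and 30.5%. The 8 include Kcnab3, Kcna4, and Lgi2, which passed the count filter in control nerves only through the injured libraries and so had to be higher. Lgi2, another LGI ligand, was at 1.27, 0.972, and 3.02 CPM in control contralateral, 7.60, 3.36, 4.82, and 0.889 CPM in RaptorKO contralateral, 25.6, 14.9, and 18.8 CPM in control injured, and 25.4, 19.4, and 31.5 CPM in RaptorKO injured nerves. The injured libraries of both genotypes lay above all contralateral ones.

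Of the 6 scaffold genes tested, 5 were called after injury in control nerves (Dlg3 and Epb41l2 lower, Dlg4, Epb41l1, and Epb41l3 higher). In RaptorKO nerves 4 were called (Dlg3 and Epb41l2 lower, Dlg4 and Epb41l1 higher). Of all tested genes, 32.9% were lower and 32.4% higher in control nerves, and 28.5% and 30.5% in RaptorKO nerves. The call of Dlg3 in RaptorKO nerves (adjusted p = 0.0464) was lost with the replicate number as a block (adjusted p = 0.0899). Epb41l2, which encodes the 4.1 protein of SCs, was at 1220 to 1289 CPM in control contralateral, 1260 to 1439 CPM in RaptorKO contralateral, 315 to 369 CPM in control injured, and 320 to 421 CPM in RaptorKO injured nerves. It fell by a log2 fold change of -1.91 ± 0.10 in control (adjusted p = 1.40e-08) and -1.92 ± 0.12 in RaptorKO nerves (adjusted p = 2.55e-07). Epb41l1 rose 3.06-fold in control (adjusted p = 4.36e-08) and 1.89-fold in RaptorKO nerves (adjusted p = 0.00144), and Dlg4, which encodes a synaptic scaffold, rose 2.73-fold (adjusted p = 2.00e-05) and 1.98-fold (adjusted p = 3.12e-04). Between the genotypes none was called. The log2 fold change of Epb41l1 and Dlg1 in contralateral nerves was 0.49 and 0.18 (unadjusted p = 0.023 and 0.0485, edgeR). Epb41l1 was called there, 1.47-fold higher, with the replicate block (adjusted p = 0.0195, edgeR), although that block joins different mice across the genotypes. Of these genes, 0 of the 6 scaffold genes tested had an unadjusted p under 0.05 in injured nerves (edgeR quasi-likelihood test).

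**Figure D5:**
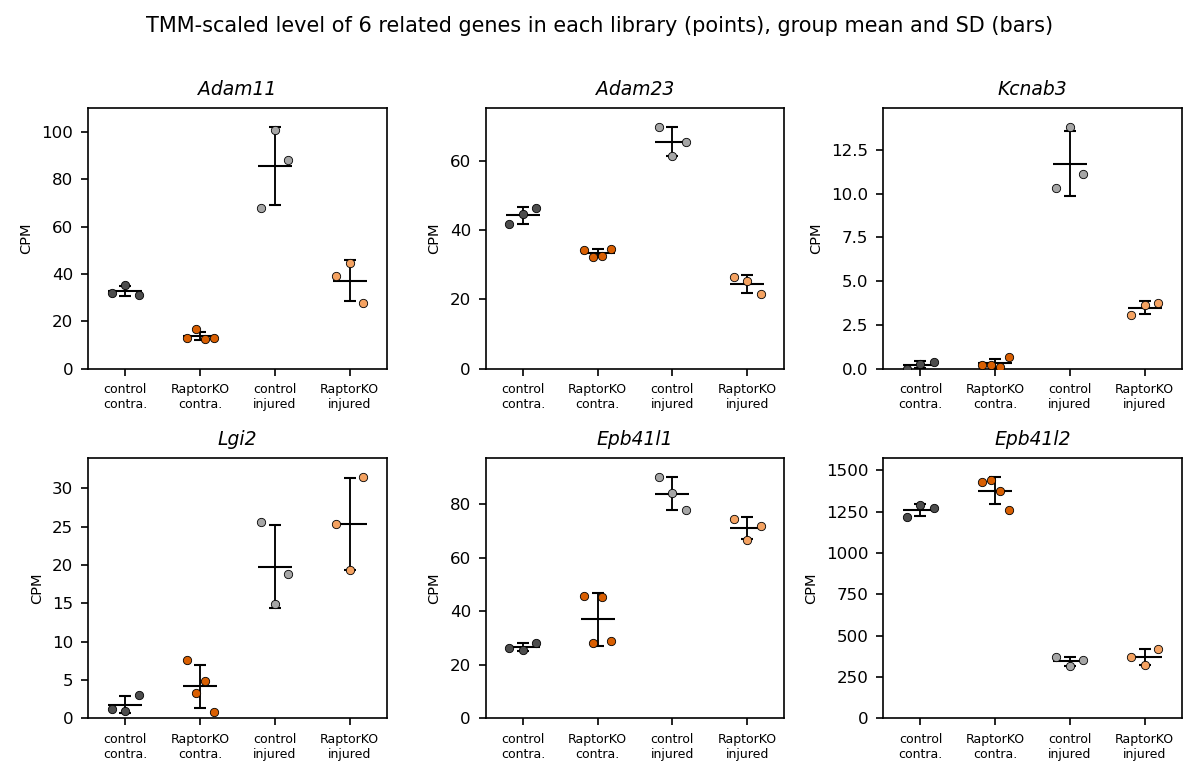
Level of 6 related genes in TMM-scaled CPM (y axis, from 0) in the 4 groups (x axis; contra., contralateral). Points are libraries, and bars are the group mean and SD. Adam11 and Adam23 are lower in RaptorKO than in control libraries on both sides, Kcnab3 is near 0 in contralateral nerves, and Epb41l2 is at 1220 to 1439 CPM in contralateral and 315 to 421 CPM in injured nerves of either genotype.

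The genes with the most similar course over the 13 libraries were sought among 12850 others by the root mean square difference of log2 CPM, each gene centered on its own mean. These likenesses describe the same libraries, most of which differ by injury, and carry no test. Nearest to Kcna2 were Scn7a at 0.227, Lrrc4 at 0.246, Sorcs1 at 0.335, Clmn at 0.367, and Nek1 at 0.384, against a spread of Kcna2 itself of 1.47 log2 units (SD). Scn7a, a sodium channel gene on the list of nonmyelinating SC markers, was at 577 to 631 CPM in control contralateral, 280 to 400 in RaptorKO contralateral, 109 to 157 in control injured, and 45.8 to 48.4 in RaptorKO injured nerves, the same order of groups as Kcna2.

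Nearest to Kcna1 were Prima1 at 0.304, A730049H05Rik at 0.333, Ccn4 at 0.371, Gm45869 at 0.409, and Prrg4 at 0.411. Nearest to Lgi1 were Sostdc1 at 0.391, Chd5 at 0.455, Acsbg1 at 0.503, A730049H05Rik at 0.509, and Kcna1 at 0.517. Kcna1 was thus among the 5 nearest genes of Lgi1, and Kcna2 ranked 16 for Lgi1 and 39 for Kcna1. These 3 genes were chosen because all were low in injured RaptorKO libraries, so their closeness to each other is partly given by the choice. Kcna6, Kcnab1, Kcnab2, and Lgi4 ranked 1340 or worse for all 3 genes, whereas Adam22 ranked 175 to 223.

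Some of these genes share exonic bases with a gene on the other strand, and the strand setting of the counting is not given in the sources used here, although the study's methods name a stranded library kit. Lgi4 shares 2059 bases with Fxyd3, which was at 79.7 to 108 CPM in the contralateral and 8.24 to 20 CPM in the injured libraries of both genotypes, a course that Lgi4 did not follow. Kcnab1 shares 201 bases with A330015K06Rik, which was at 75.1 to 85.4 CPM in control contralateral, 16.7 to 25.0 CPM in RaptorKO contralateral, and 3.41 to 8.78 CPM in the injured libraries, so it was low in RaptorKO contralateral nerves as Kcnab1 was and, unlike Kcnab1, did not rise with injury. The antisense genes at Kcna6 and Lgi1 held few counts or none (at most 7 and 0). The part of these overlaps in the values of Lgi4 and Kcnab1 was not tested.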

How the data were processed

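RNA was sequenced from 13 mouse sciatic nerves, 1 library each, made from total RNA with an Illumina TruSeq kit (a stranded mRNA kit in the study's methods). Per the labels' processing notes, the authors trimmed reads with Trimmomatic and estimated genes with RSEM 1.2.22 on GRCm38. They deposited expected counts, which are not normalized for depth and were rounded to whole numbers here. Counts set the precision, and limits set by low counts cover counting error only.

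The 10 genes, the gene lists and the tests were chosen with earlier results of these data known. The genes named are these 10, Rptor, at most 6 called and non-overlapping pathway genes per comparison, the 5 genes nearest to Kcna1, Kcna2, and Lgi1, and the leading markers. Groups came from the labels. The study counts the libraries of a group as separate mice. Injured and contralateral libraries of a genotype share replicate numbers, and since the crush was unilateral equal numbers may mark 1 mouse, which the sources do not state outright. Numbers shared across genotypes mark different mice.

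The tests ran in edgeR 4.0.16 under R 4.3.3 (TMM, quasi-likelihood test, Benjamini-Hochberg adjustment over all tested genes). Log2 CPM used a prior count of 2. The comparison of all 13 libraries used an interaction term. Alternatives were DESeq2 1.42.0, the exact test of edgeR, which the study used, RLE factors, no count filter, filterByExpr, a replicate block, 1 fit of all libraries, an adjusted p below 0.01, leaving out each library, and other gene lengths. The steps were tested on simulated data. Exon lengths, overlaps, and coding sequence came from the GRCm38 annotation in the reference, where 40634 of the 40787 genes were matched, and promoters came from RefSeq. Shared windows were exact 50-base matches. Plots were made in matplotlib 3.10.9 (Python 3.11.15). Protein sequences were not used here. Some marker genes of the lists are not reported here.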

Additional observations from a re-analysis of the deposited data

Results flagged for a closer look

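Adam23, an LGI receptor gene outside the chosen group, differed between genotypes by more in injured than in contralateral nerves, with a difference of both effects of -1.02 (log2, SE 0.15, edgeR interaction, adjusted p = 0.00275). Its injury change also lay on opposite sides of 0, at a log2 fold change of 0.52 in control nerves (3 of 3 injured libraries above all contralateral ones) and -0.48 in RaptorKO nerves (3 of 3 below). In the test for a single library far from its group, which applies to the 4 RaptorKO contralateral libraries only, none of the 10 genes stood out.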

How the results depend on the processing

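Of the 10 genes, those called in contralateral nerves numbered 4 in the main analysis, and 3 to 5 in the alternatives. In RaptorKO nerves after injury, the 2 called genes became 1 at an adjusted p below 0.01. They became 1 to 3 without single libraries, 1 being the fit without RaptorKO injured replicate 1. Kcnab1 was called in addition by the exact test and in the single fit of all libraries. The pathway genes called in contralateral nerves went from 2 to 4 with the replicate block (2 lower, 2 higher, the latter Lgi2 and Epb41l1). They went to 1 at an adjusted p below 0.01 and to 1 to 2 without single libraries. Lgi2 passed the count filter in contralateral nerves only through RaptorKO libraries and so could only be higher. The sign of Kcna1 in contralateral nerves, -0.05 on the log2 scale, turned to 0.008 with the replicate block and ran from -0.158 to 0.033 without single libraries, above 0 without control contralateral replicate 2 or RaptorKO contralateral replicate 3 or 4. That of Lgi4 after injury in controls, -0.04, turned to 0.004 with no count filter and ran from -0.1 to 0.051 without single libraries. Neither was called in any of these fits. With the replicate block Kcna6 was called in contralateral nerves (adjusted p = 0.0041, edgeR quasi-likelihood test). Between genotypes, however, the block joins numbers that mark different mice. It also leaves RaptorKO contralateral library 4 alone in its block, so that library does not inform the genotype difference. The log2 fold change of Kcna6 was -0.481 with the block and -0.478 without library 4. With that block, no call among the 10 genes changed between injured and contralateral nerves, and of the pathway list only that of Dlg3 in RaptorKO nerves was lost. Deviations of same-numbered libraries correlated at 0.067 to 0.305 between control nerves and at -0.024 to 0.211 between RaptorKO nerves. Libraries of different numbers correlated at -0.226 to 0.136 and at -0.298 to 0.137. Both libraries that carried Xist have the number 3, as they would if equal numbers marked 1 mouse. Not every library was closest to its own number, so the main analysis had no block and treated all nerves as independent. In injured nerves the median log2 fold change of the group ran from -1.13 to -0.93 over the alternatives. Levels per kb moved with the length used, and with them the order of Kcna1 and Kcna2. The cause of these shifts was not tested. Genes under 50 counts could not be compared at this depth.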
